A study of Apera spica-venti with 7 samples.

Results

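Germinating seeds of Apera spica-venti, the loose silky bentgrass, at 4 stages were set against leaf, root and stem of grown plants, to find which functions were named in the seed assemblies and not in the organ assemblies, or the other way round. All translated transcripts whose best plant homologue had an e-value of at most 0.1 were taken, which gave 251792 of the 289634 transcripts of these 7 assemblies. Of them 155348 came from the seed stages and 96444 from the organs. A low e-value means that a match as good would seldom turn up by chance.

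The seeds were harvested at BBCH 05, when the young root leaves the seed, at BBCH 07, when the coleoptile (the sheath around the first leaf) comes out, at BBCH 08, when it lengthens, and at BBCH 09, when it breaks the surface. They germinated on wet filter paper in a climate cabinet. Leaf, root and stem came from greenhouse plants at BBCH 34 to 36, the time of stem elongation. All the plants came from 1 mixture of Danish populations that herbicides still controlled, no group was treated with a herbicide, and RNA of several individuals was pooled for each library. The seed material held whole germinating grains, so embryo, endosperm and seedling were not told apart. The seeds differed from the organs in age, place of growth, mass used (0.7 g against 0.5 g), grinding and storage. Seeds were kept in a stabilizing liquid, RNAlater, and organs were frozen in liquid nitrogen. The study lowered its limit on RNA quality because of the germinated seeds. After quality control and normalization root had the most reads, leaf and stem the fewest, and the seed stages lay between. None of these differences can be told apart from the tissue.

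Each condition is 1 assembly here, so no value below has a replicate and no test was possible. The methods of the study also mention further libraries of leaf and root, which were not analysed here. The 4 stages and the 3 organs are different conditions and not replicates of a seed or of an organ. What was counted was assembled transcripts, after reads had been evened out by k-mers and like contigs merged, so a count is no level of expression. A row is 1 predicted peptide, called a transcript here, and a contig can hold several of them. Values of the seeds are given in the order BBCH 05, 07, 08 and 09 and values of the organs in the order leaf, root and stem. Annotated transcripts numbered 36287, 39930, 38229 and 40902 in the seed stages, against 28412, 38809 and 29223 in the organs. A single transcript was therefore 0.00244 to 0.00352% of an assembly, and a count of 0 allows a share of up to 0.00733 to 0.0106% (3 transcripts of the total, counting error only). Within the assemblies 73.5 to 76.6% of the annotated transcripts carried a GO name, 13.3 to 14.7% an enzyme code and 21.9 to 24.2% an informative description, meaning a homologue with a functional name. Peptides of annotated transcripts had a median length of 200, 175, 183 and 188 amino acids in the seed stages, against 194, 201 and 232 in the organs. Homologues from green algae made up 1.31% of the transcripts at BBCH 09 and 1.08% in root, against 0.141 to 0.339% elsewhere. Just inside the e-value limit, from 0.05 to 0.1, stood 234 to 309 transcripts in each seed stage and 156 to 306 in each organ, with a median similarity of 49 to 50%. Just outside it, up to 0.2, stood 304 to 431 in the seed stages and 221 to 456 in the organs, with 49 to 50%.

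A grass grain carries starch and storage protein in the endosperm and oil in the embryo and aleurone. On germination, amylases, proteases, phosphatases and the glyoxylate cycle turn these reserves into sugars, amino acids and phosphate for the seedling. Abscisic acid holds the grain dormant and gibberellin sets off the release of the enzymes. Grown leaves, roots and stems run photosynthesis, uptake of water and minerals and the building of lignified walls.

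The 2 lists of seed reserves were the ones whose shares in every seed stage stood above those in every organ. In all, 14 lists of functions were counted by words in the descriptions. The lists were chosen with earlier results of these data known. Their calls, and the counts of members called below, are therefore descriptions and no independent support. Seed storage and reserve mobilization were higher in the seed stages (2 of 14 lists, 14.3%), mobile elements were higher in the organs (1 of 14, 7.14%), and the other 11 overlapped. No list had 95% Wilson intervals that kept all seed stages apart from all organs. Without the most frequent description of each list, seed storage was left as the 1 list higher in the seeds, and mobile elements stayed higher in the organs. Without root, heat shock and chaperones and lignin and secondary wall joined the lists higher in the seeds, which made 4. Lists higher in the organs came to 2 without BBCH 05, with root uptake, or without BBCH 09, with defence, and to 3 without leaf, with root uptake and pollen and flower.

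The seed storage list was taken by words for storage proteins, the nitrogen store of the grain, and also held names such as basic 7S globulin. It made up 0.0524, 0.0401, 0.0392 and 0.0244% of annotated transcripts in the seed stages, against 0.0141, 0.0206 and 0.0103% in the organs. These are 19, 16, 15 and 10 transcripts in the seeds, against 4, 8 and 3 in the organs. The share was highest where the young root had just come out and lowest at emergence, and the interval at BBCH 09 (0.0133 to 0.045%) overlapped those of all 3 organs. Globulin-1 S allele, a vicilin-like globulin, had 3, 3, 3 and 2 transcripts in the seeds, against 1, 2 and 1 in the organs. Basic 7S globulin had 2, 1, 4 and 3 in the seeds, against 0, 2 and 0 in the organs. 11S globulin seed storage 2, of the legumin type, had 1, 2, 1 and 2 in the seeds, against 2, 1 and 1 in the organs. So of the 3 most frequent storage descriptions none had shares that kept seeds and organs apart. The 11S, 12S, globulin-1 and 19 kDa globulins were also counted together, a grouping chosen after values were seen. They had 12, 10, 6 and 5 transcripts in the seeds, against 3, 4 and 3 in the organs. Their shares did not overlap, though BBCH 09 (0.0122%) lay close to leaf (0.0106%). Plain 11S globulin, chosen after its values were seen, had 6, 3, 1 and 0 transcripts in the seeds, against none in leaf, root or stem. Prolamins, the main storage proteins of grasses (hordeins, gliadins, avenins and the like), came to 2, 2, 0 and 1 transcripts in the seeds, against none in the organs. The labelled seeds thus held few transcripts with the names of these storage proteins. The GO name nutrient reservoir activity was on 41, 41, 41 and 39 transcripts in the seeds, against 15, 35 and 21 in the organs.

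Reserve mobilization was taken by words for enzymes that break down starch, storage protein, phytate and oil. By wording it also held a few other names, such as 2-isopropylmalate synthase 1, thioredoxin h-type and inactive purple acid phosphatase 27. Its shares were 0.245, 0.22, 0.267 and 0.235% in the seed stages, against 0.197, 0.201 and 0.181% in the organs, with intervals that overlapped in all 12 pairs of a stage and an organ. The call rested on purple acid phosphatase, which held 196 of the 562 transcripts. Without it the shares were 0.16, 0.138, 0.18 and 0.152% in the seed stages, against 0.116, 0.147 and 0.11% in the organs, so BBCH 07 lay under root and the list overlapped. Of its 13 descriptions on at least 10 transcripts, 4 had every seed share above every organ share and none the reverse, against 7.23% and 5.66% over all 1396 descriptions compared. Since the list was chosen with earlier results of these data known, this difference is no independent support for it. Purple acid phosphatase, which frees phosphate, was the most frequent, with 31, 33, 33 and 34 transcripts in the seeds, against 23, 21 and 21 in the organs. Alpha-amylase, which opens starch, had 11, 11, 15 and 9 in the seeds, against 5, 9 and 3 in the organs. Beta-amylase, which cuts maltose from starch, had 7, 5, 10 and 7 in the seeds, against 6, 6 and 3 in the organs. Only the first of these 3 did not overlap. The enzyme code of alpha-amylase, 3.2.1.1, was on 14, 14, 16 and 14 transcripts in the seeds, against 7, 9 and 3 in the organs, and its shares did not overlap. Peptides with alpha-amylase in the description had median lengths of 176.5, 119, 157.5 and 232 amino acids in the seeds, against 418, 185 and 377 in the organs. Those with beta-amylase had 248, 200, 155 and 128.5 in the seeds, against 198.5, 171.5 and 154 in the organs. Whether several short peptides came from the same protein was not tested.

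The glyoxylate cycle turns the carbon of stored oil into sugar. Malate synthase (code 2.3.3.9), one of its 2 particular enzymes, was on 3, 2, 3 and 2 transcripts in the seeds, against 0, 1 and 0 in the organs. Isocitrate lyase, the other, was chosen after its values were seen and had 1, 4, 4 and 1 in the seeds, against 1, 1 and 1 in the organs, which overlap in transcripts. Its peptides had median lengths of 564, 184, 109 and 564 amino acids in the seeds, against 563 in each organ. Those of malate synthase had 210, 239, 133 and 266.5 in the seeds, against 564 in root. Citrate synthase (code 2.3.3.1), shared with the citric acid cycle, was on 4, 3, 4 and 5 in the seeds, against 1, 1 and 1 in the organs. The oil body proteins behaved alike in their counts. Oleosin, the coat protein of oil bodies, had 3, 3, 3 and 3 transcripts in the seeds, against 0, 2 and 0 in the organs. Caleosin 1, a calcium-binding protein of oil bodies, had 3, 2, 3 and 3 in the seeds, against 0, 1 and 0 in the organs. Dehydrin DHN3, which protects cells that dry out, had 2, 1, 2 and 2 in the seeds, against 1, 2 and 1 in the organs. Together with late embryogenesis proteins they formed a list with shares of 0.0441, 0.0225, 0.0419 and 0.0342% in the seeds, against 0.0246, 0.0335 and 0.00684% in the organs, which overlapped because BBCH 07 lay under leaf and root. Of the 4 members compared, oleosin and caleosin 1 had every seed share above every organ share, against 7.23% of all descriptions.

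**Figure D1:**
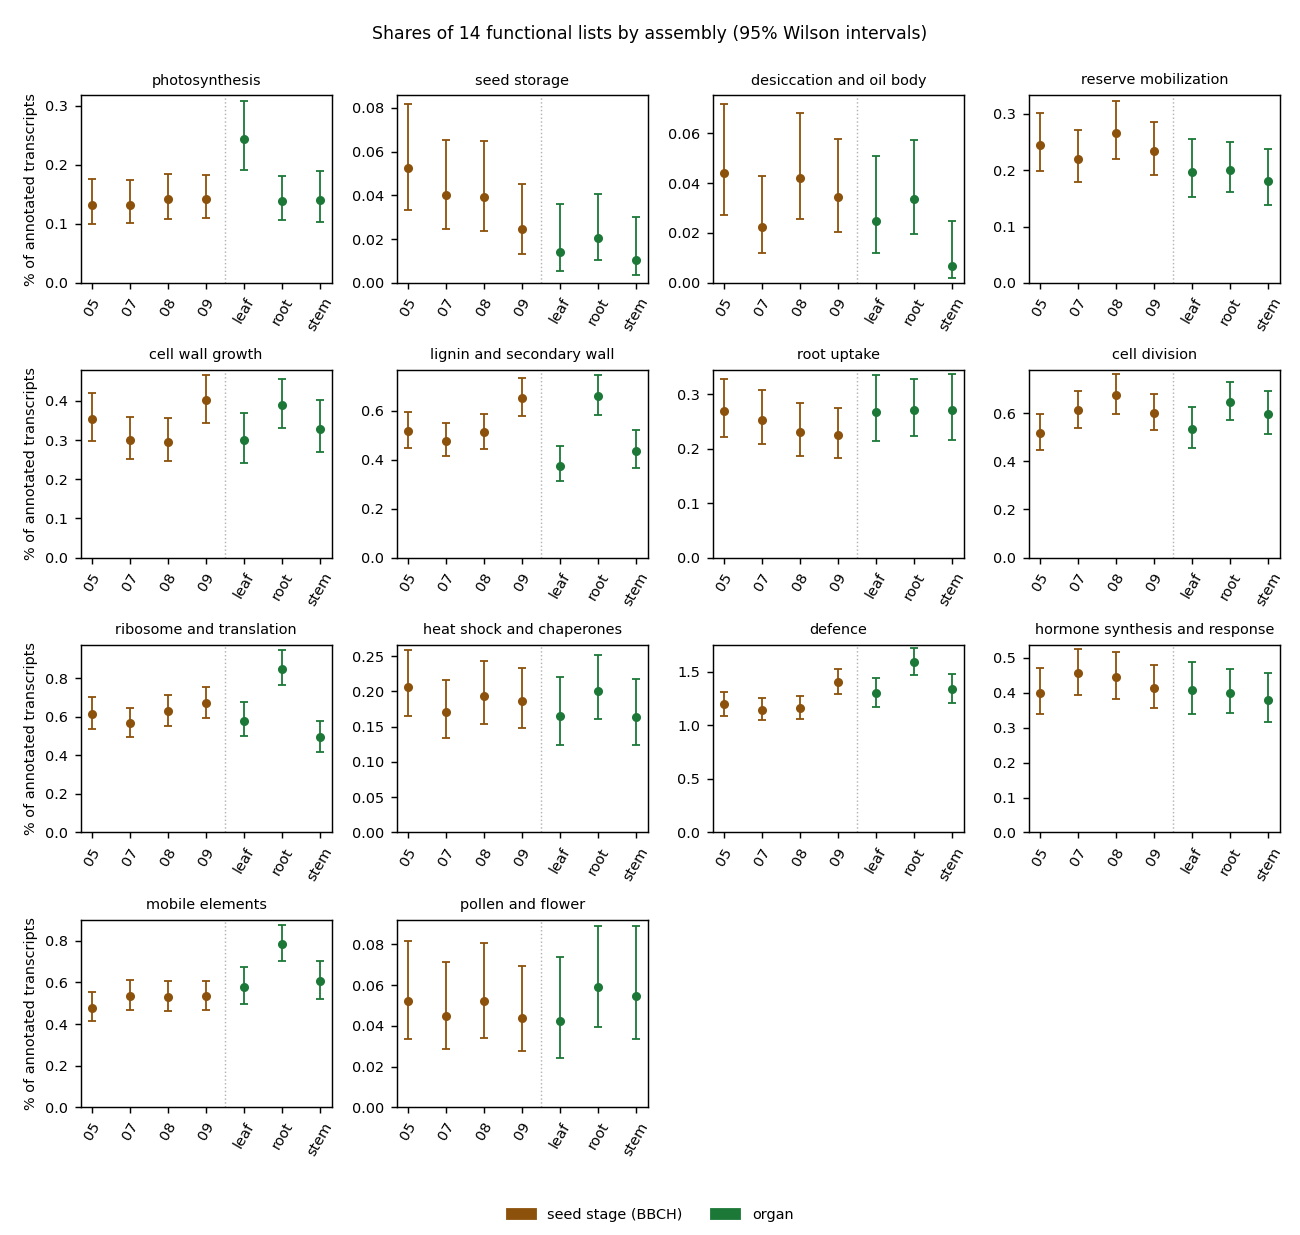
Share of annotated transcripts (y axis, percent) in each of 14 lists of functions, for the 4 seed stages by BBCH number and then leaf, root and stem (x axis). Points are shares of 1 assembly each and bars 95% Wilson intervals, which cover counting error only. Seed storage and reserve mobilization stand higher in every seed stage than in every organ, mobile elements lower, and leaf stands out in the photosynthesis list at 0.243%.

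Photosynthesis was highest in leaf. The list of descriptions had shares of 0.132, 0.133, 0.141 and 0.142% in the seeds, against 0.243, 0.139 and 0.14% in the organs. The interval of leaf (0.192 to 0.307%) lay above those of all 4 seed stages, while root and stem lay within the range of the seeds. By GO name, chosen after values were seen, the shares did not overlap. Photosynthesis made up 0.207, 0.218, 0.191 and 0.208% in the seeds, against 0.317, 0.237 and 0.24% in the organs, and light harvesting 0.0827, 0.0902, 0.0811 and 0.0929% in the seeds, against 0.183, 0.0979 and 0.0958% in the organs. Root and stem thus stood above every seed stage by GO name, by less than leaf did, and not by description. Chlorophyll a-b binding proteins of the chloroplast, which collect light, had 14, 21, 13 and 15 transcripts in the seeds, against 27, 17 and 13 in the organs. Ferredoxin--NADP reductase, the last step of the electron chain, had 3, 3, 5 and 3 in the seeds, against 5, 4 and 2 in the organs. Phosphoenolpyruvate carboxylase 1, which also refills the citric acid cycle, went the other way, with 3, 4, 5 and 5 in the seeds, against 2, 3 and 2 in the organs and no overlap of shares. The small chain of ribulose bisphosphate carboxylase, the enzyme that fixes carbon dioxide, had 0, 1, 1 and 1 in the seeds, against 4, 2 and 3 in the organs.

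Root uptake was a list of mineral and water transporters and some other names such as CASP. It did not set the root apart, with shares of 0.27, 0.253, 0.23 and 0.225% in the seeds, against 0.267, 0.271 and 0.27% in the organs. Potassium transporters led with 32, 30, 30 and 30 transcripts in the seeds, against 24, 27 and 29 in the organs. Descriptions reading CASP had 24, 29, 25 and 28 in the seeds, against 18, 29 and 22 in the organs. Only some members of this family place the Casparian strip of the root, and the name does not tell them apart. Ammonium transporters had 4, 4, 2 and 7 in the seeds, against 2, 6 and 3 in the organs. Nitrate transporters, chosen after their values were seen, had 3, 4, 2 and 3 in the seeds, against 3, 11 and 2 in the organs, so the root was high in this family.

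Mobile elements made up 0.48, 0.536, 0.531 and 0.533% in the seeds, against 0.577, 0.786 and 0.606% in the organs, and the interval of root (0.703 to 0.879%) lay above those of all seed stages. Of 27 members compared, 4 (against 5.66% of all descriptions) had every organ share above every seed share and 3 (against 7.23%) the reverse. Among the largest, unclassified retrotransposons had 27, 35, 18 and 29 transcripts in the seeds, against 22, 55 and 27 in the organs. Ty1-copia retrotransposons had 18, 28, 28 and 33 in the seeds, against 20, 30 and 16 in the organs, and plain retrotransposons 23, 33, 25 and 24 in the seeds, against 20, 29 and 18 in the organs. Transposase, the enzyme of DNA transposons, stood higher in the seeds, with 25, 22, 23 and 21, against 13, 16 and 14 in the organs. Gag-pol, the polyprotein of retrotransposons, had 1, 2, 2 and 3 in the seeds, against 5, 7 and 7 in the organs.

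In cell wall growth the shares were 0.353, 0.301, 0.296 and 0.401% in the seeds, against 0.299, 0.389 and 0.329% in the organs. Its largest members were xyloglucan endotransglucosylase hydrolases, which loosen and rejoin xyloglucan (24, 18, 22 and 33 in the seeds, against 15, 31 and 18 in the organs), pectinesterase (28, 17, 24 and 33 in the seeds, against 11, 28 and 19 in the organs) and cellulose synthase (15, 22, 25 and 27 in the seeds, against 29, 22 and 19 in the organs). Lignin and secondary wall had 0.518, 0.478, 0.513 and 0.653% in the seeds, against 0.377, 0.66 and 0.438% in the organs, so emerged seedlings and root were alike and high. The same 2 assemblies were high in the peroxidases, which had 135, 138, 142 and 210 transcripts in the seeds, against 68, 193 and 86 in the organs. Phenylalanine ammonia-lyase, the entry to phenylpropanoids, had 25, 26, 28 and 19 in the seeds, against 14, 21 and 17 in the organs. Laccase, which oxidises lignin precursors, had 9, 8, 6 and 12 in the seeds, against 8, 22 and 10 in the organs. In cell division kinesins, the motors that move along microtubules, did not overlap, with 98, 130, 130 and 119 in the seeds, against 69, 99 and 75 in the organs. Histone H2A had 10, 13, 17 and 16 in the seeds, against 9, 31 and 13 in the organs. The plain description DNA polymerase went the other way without overlap, with 5, 10, 10 and 9 in the seeds, against 11, 12 and 11 in the organs. DNA polymerase I, a separate description, overlapped, with 0, 9, 3 and 3 in the seeds, against 1, 2 and 1 in the organs.

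Ribosome and translation reached 0.615, 0.566, 0.628 and 0.67% in the seeds, against 0.581, 0.85 and 0.493% in the organs, with root above all seed stages by its interval. Chloroplast 50S ribosomal proteins had 11, 7, 10 and 10 transcripts in the seeds, against 10, 8 and 9 in the organs. Methionyl-tRNA synthetase had 7, 11, 8 and 7 in the seeds, against 4, 6 and 8 in the organs, and elongation factor 1-alpha 7, 4, 6 and 7 in the seeds, against 1, 15 and 3 in the organs. Green-algal homologues were most frequent in the root and at BBCH 09, and the calls of all 14 lists were the same without them. Such a call cannot show a change in root alone, since stem lay under every seed stage in this list. The share of root without green algae is not given here. Heat shock and chaperones overlapped, led by 2 descriptions of heat shock cognate 70 kDa proteins (6, 7, 6 and 6, and 5, 5, 3 and 6, in the seeds, against 2, 7 and 5, and 4, 5 and 4, in the organs) and by mitochondrial chaperone BCS1-B (4, 7, 5 and 3 in the seeds, against 3, 4 and 3 in the organs).

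Defence had shares of 1.2, 1.15, 1.16 and 1.4% in the seeds, against 1.3, 1.59 and 1.34% in the organs, so BBCH 09 lay within the organs and the 3 earlier stages under them. Disease resistance RPM1 proteins, immune receptors inside the cell, had 105, 116, 114 and 157 transcripts in the seeds, against 80, 150 and 97 in the organs. RPP13, of the same class, had 40, 40, 44 and 65 in the seeds, against 58, 91 and 51 in the organs, with no overlap of shares. RGA4 had 46, 44, 40 and 47 in the seeds, against 36, 66 and 42 in the organs. Hormone synthesis and response overlapped (0.4, 0.456, 0.445 and 0.413% in the seeds, against 0.408, 0.399 and 0.38% in the organs). Auxin response factors had 37, 60, 53 and 44 in the seeds, against 26, 40 and 37 in the organs, and auxin-responsive proteins 34, 35, 35 and 45 in the seeds, against 32, 41 and 29 in the organs. Auxin efflux carrier components, which export auxin from cells, did not overlap, with 10, 12, 9 and 10 in the seeds, against 5, 8 and 4 in the organs. Pollen and flower names were few everywhere (19, 18, 20 and 18 in the seeds, against 12, 23 and 16 in the organs), with MADS-box transcription factor 27 at 2, 3, 2 and 2 in the seeds, against 0, 4 and 1 in the organs, pollen-specific SF3 at 1, 2, 2 and 2 against 1, 3 and 1, and ruptured pollen grain 1 at 2, 2, 2 and 2 against 0, 1 and 1.

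Words tied to germination itself did not tell seeds from organs. The GO name seed germination was on 57, 74, 63 and 58 transcripts in the seeds, against 52, 60 and 52 in the organs, and seed dormancy process on 47, 58, 54 and 47 in the seeds, against 38, 49 and 42 in the organs. Descriptions with gibberellin came to 14, 7, 8 and 13 in the seeds, against 6, 11 and 9 in the organs. The GO name of abscisic acid signalling was on 21, 28, 28 and 26 in the seeds, against 20, 23 and 18 in the organs. These 4 words were chosen after values were seen.

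Most names were in both. Of 4418 GO names, 3274 (74.1%) were in all 7 assemblies, of 702 enzyme codes 576 (82.1%) and of 5643 descriptions 1513 (26.8%). Found in all 4 seed stages and in no organ were 18 GO names (0.407%), 5 enzyme codes (0.712%) and 50 descriptions (0.886%). Found in all 3 organs and in no seed stage were 8 GO names (0.181%), 1 enzyme code (0.142%) and 33 descriptions (0.585%). A further 48 GO names, 9 codes and 128 descriptions were in all seed stages and 1 organ, and 13 GO names and 48 descriptions in all organs and 1 seed stage. The 2 directions ask for different numbers of assemblies and so their counts cannot be set against each other. The names on 1 side only were rare ones, with a median of 5 transcripts over the 4 seed stages for GO names, codes and descriptions, while GO names in all 7 had a median of 31. Leaving out an assembly can only add such names. Without root the seed side grew to 50 GO names, 11 codes and 133 descriptions, and without leaf to 28 GO names and 8 codes. Without BBCH 05, 08 or 09, or stem, there were 82, 79, 92 or 77 seed descriptions. On the organ side, leaving out BBCH 09, root or stem gave 18, 19 or 24 GO names, leaving out root or stem gave 2 or 3 codes, and leaving out BBCH 05, BBCH 09, leaf, root or stem gave 51, 50, 75, 58 or 71 descriptions.

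**Figure D2:**
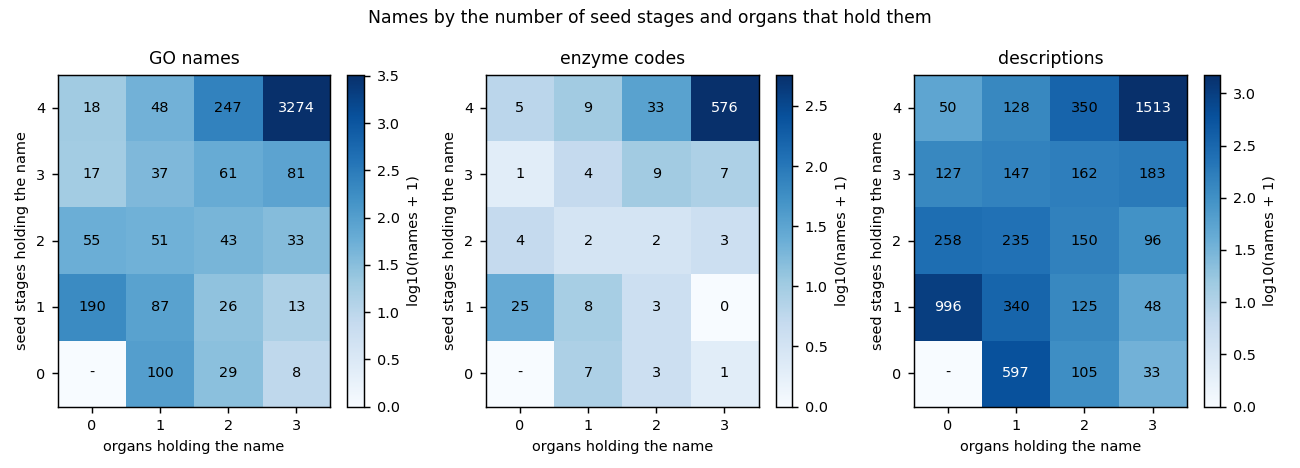
Number of GO names, enzyme codes and descriptions (3 panels) by how many of the 4 seed stages (y axis) and how many of the 3 organs (x axis) hold them, each cell printing its count and shaded by log10 of the count plus 1. The top right cells, names in all 7 assemblies, hold 3274, 576 and 1513, while the top left cells hold 18, 5 and 50 and the bottom right cells 8, 1 and 33.

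Elongation factor 2, which moves the ribosome along the messenger, was the most frequent description found in the seed stages alone. It had 4, 3, 3 and 3 transcripts in the seeds, against none in the organs. The 13 peptides had lengths from 101 to 406 amino acids. They matched 2 proteins, and 1 peptide at BBCH 08 matched the green-algal one of these. The GO name translation elongation factor activity was on 39, 40, 50 and 44 transcripts in the seeds, against 27, 52 and 25 in the organs, so elongation factors as such were named in the organs. A eukaryotic translation initiation factor 2-alpha kinase, of the family that slows translation under stress, had 3, 2, 1 and 1 in the seeds, and initiation factor 6, which acts on the large ribosomal subunit, 1, 3, 2 and 1, against none of either in the organs. 3-isopropylmalate dehydrogenase of the chloroplast, an enzyme of leucine synthesis, had 2, 3, 5 and 1 in the seeds, against none in the organs. Counted with any further words in the name, 3-isopropylmalate dehydrogenase came to 2, 3, 5 and 2 in the seeds, against 1, 2 and 1 in the organs. These peptides had median lengths of 206, 114, 113 and 255 amino acids in the seeds, against 377, 397.5 and 457 in the organs.

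MAR-binding, named after the DNA stretches that attach chromatin to the nuclear matrix, had 2, 2, 3 and 2 transcripts in the seeds, and helicase ARIP4 2, 2, 2 and 2, against none in the organs. F-box LRR-repeat 4, of a family that picks targets for ubiquitin, had 2, 1, 2 and 4 in the seeds, against none in the organs. Dual specificity kinase PYK1 and kinase G11A had 2, 2, 2 and 2 each in the seeds, against none in the organs. Cytochrome P450 98A1, of the subfamily that hydroxylates lignin precursors, had 1, 3, 1 and 2 in the seeds, against none in the organs. Of the 50 descriptions, 43 rested on 1 protein each, 21 on a single transcript per stage, and 5 had at least 2 transcripts in every stage.

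VP 1, a name used for the viviparous-1 factors of cereals that keep grains dormant through abscisic acid, was among the rarer of the 50 and was chosen after its values were seen. It had 2, 1, 1 and 1 transcripts in the seeds, against none in the organs. All 5 had 1 protein as best homologue, with peptides of 115 and 534 amino acids at BBCH 05, 537 at BBCH 07, 689 at BBCH 08 and 698 at BBCH 09. A count of 0 in leaf, root and stem allows shares of up to 0.0106, 0.00773 and 0.0103%, above the 0.00551, 0.0025, 0.00262 and 0.00244% that these transcripts make up in the seeds, so the difference was not detectable at this depth. The same bound holds for nearly all names found on 1 side only.

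**Figure D3:**
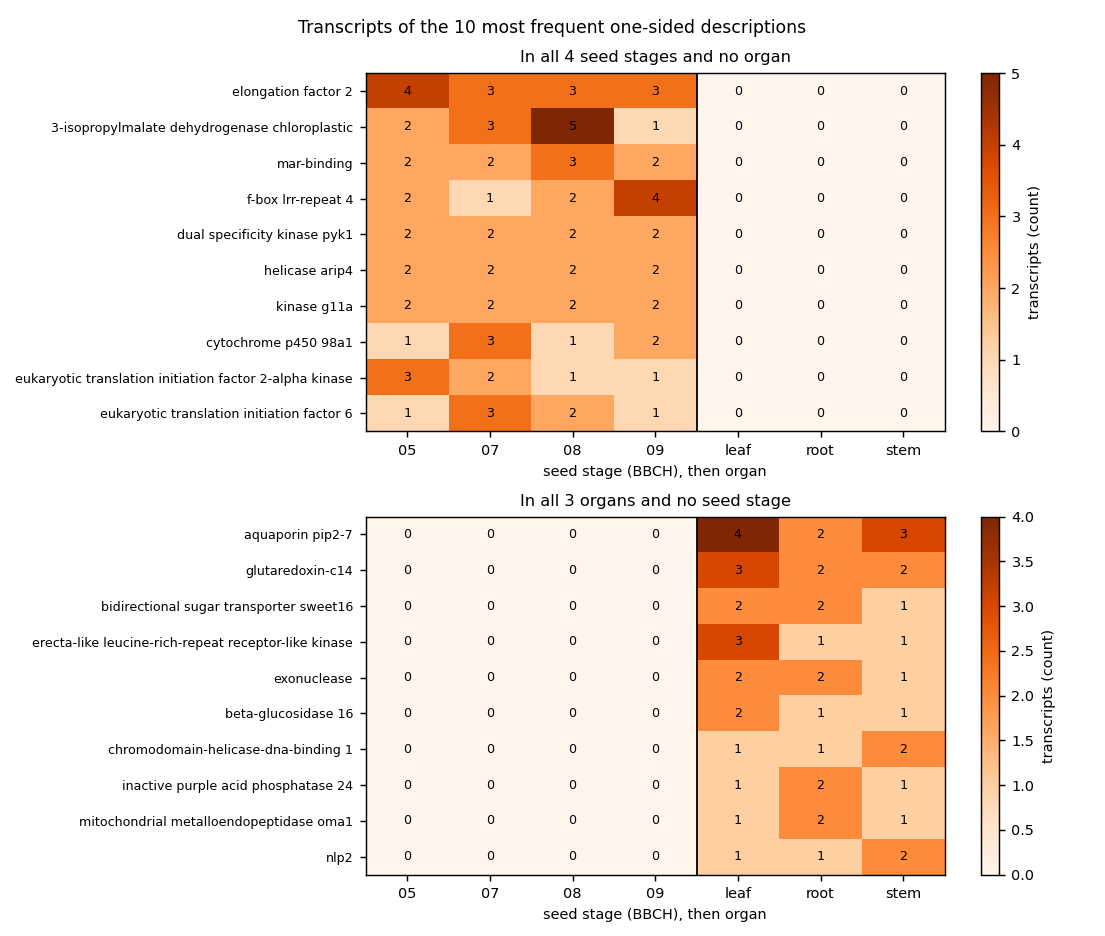
Transcripts (numbers in the cells, shaded from 0) of the 10 most frequent descriptions found in all seed stages and no organ (upper panel) and of the 10 most frequent found in all organs and no seed stage (lower panel), with seed stages by BBCH number left of leaf, root and stem (x axis). Elongation factor 2 leads the upper panel with 4, 3, 3 and 3 transcripts in the seeds, and aquaporin PIP2-7 the lower one with 4, 2 and 3 in the organs.

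Among the 18 GO names of the seed stages, aromatic compound catabolic process was on 6, 3, 1 and 3 transcripts in the seeds, against none in the organs. Of these 13, 7 had 11S globulin as best homologue, 5 at BBCH 05 and 2 at BBCH 07, so the name was carried largely by a storage protein. The code 1.14.12, oxygenases that put both atoms of oxygen into their substrate, and the GO name for the same activity, were on 1, 1, 1 and 3 in the seeds, against none in the organs. Basal plasma membrane was on 1, 4, 1 and 2 in the seeds, all of them auxin efflux carrier components with peptides of 107 to 294 amino acids, against none in the organs. The description itself was present in all organs, with 5, 8 and 4 transcripts, as given above.

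Trans-2-enoyl-CoA reductase activity, the last step of fatty acid elongation, was on 3, 1, 1 and 1 transcripts in the seeds, and its code 1.3.1.38, fatty acid elongase activity and fatty acid elongase complex on 2, 1, 1 and 1 each, against none in the organs. Descriptions of such reductases came to 3, 2, 2 and 2 in the seeds, against 1, 0 and 1 in the organs. Long-chain fatty acid-CoA ligase (code 6.2.1.3), which activates fatty acids, and fatty-acyl-CoA biosynthetic process were on 1, 1, 2 and 1 in the seeds, all matching 1 uncharacterized protein with peptides of 205 to 613 amino acids, against none in the organs. Long chain acyl-CoA synthetases by description, which catalyse that step, had 8, 8, 7 and 9 in the seeds, against 12, 14 and 7 in the organs. The GO name of the activity that makes farnesyl diphosphate was on 1, 1, 1 and 2 in the seeds and its code 2.5.1.10 on 1, 1, 1 and 1, against none in the organs. Farnesyl pyrophosphate synthase by description had 1, 3, 1 and 2 in the seeds, against 2, 2 and 1 in the organs. In these 3 cases organs held the description and not these GO names and codes, except that root lacked the description of the reductases too.

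The older code of succinate dehydrogenase, 1.3.99.1, an enzyme of the citric acid cycle and of respiration, was on 1, 1, 1 and 2 transcripts in the seeds, against none in the organs. Descriptions of succinate dehydrogenase had 4, 3, 3 and 4 in the seeds, against 4, 8 and 2 in the organs, and any GO name with succinate dehydrogenase was on 5, 6, 5 and 7 in the seeds, against 4, 8 and 3 in the organs. U3 snoRNA binding, tied to ribosome assembly, was on 2, 2, 1 and 1 in the seeds, all matching 1 uncharacterized protein with peptides of up to 642 amino acids, against none in the organs, while U3 small nucleolar descriptions had 9, 9, 7 and 3 in the seeds, against 6, 5 and 5 in the organs. Carbohydrate biosynthetic process was on 1, 1, 2 and 1 in the seeds, against none in the organs. For 4 of the 18 GO names the same homologue was also matched by organ transcripts that did not carry the name.

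Aquaporin PIP2-7, a water channel of the plasma membrane, was the most frequent description found in the organs alone, with no transcript in the seeds, against 4, 2 and 3 in the organs. Aquaporins of the PIP2 group as a whole had 1, 2, 2 and 3 in the seeds, against 6, 3 and 4 in the organs, and those of the PIP1 group 2, 1, 1 and 2 in the seeds, against 2, 2 and 2 in the organs. Bidirectional sugar transporter SWEET16, known in Arabidopsis from the vacuole, had none in the seeds, against 2, 2 and 1 in the organs, and SWEET transporters together 1, 0, 0 and 1 in the seeds, against 2, 5 and 2 in the organs. Glutaredoxin-C14, a small thiol oxidoreductase, had none in the seeds, against 3, 2 and 2 in the organs. Aquaporin PIP2-7 and glutaredoxin-C14 were the 2 of the 33 descriptions with at least 2 transcripts in every organ.

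The ERECTA-like receptor kinase, of a family that shapes growth and stomata in Arabidopsis, had no transcript in the seeds, against 3, 1 and 1 in the organs. Exonuclease had none in the seeds, against 2, 2 and 1 in the organs, beta-glucosidase 16 none against 2, 1 and 1, inactive purple acid phosphatase 24 none against 1, 2 and 1, and the mitochondrial protease OMA1 none against 1, 2 and 1. NLP2 and chromodomain-helicase-DNA-binding 1 each had none in the seeds, against 1, 1 and 2 in the organs. The last of these had a median e-value of 0.099, so most of its matches stood at the limit. Of the 33 descriptions, 28 rested on 1 protein each and 22 on a single transcript per organ.

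Manganese transport led the GO names of the organs. Manganese-transporting ATPase activity (code 3.6.3.35, the 1 code found in the organs alone) and manganese ion homeostasis were on no transcript in the seeds, against 1, 2 and 3 in the organs. All 6 matched calcium-transporting ATPases and had 114 to 873 amino acids. They came from 3 Trinity genes, 1 in each organ, so the counts of root and stem are several peptides of the same gene. Descriptions of calcium-transporting ATPases were common on both sides, with 32, 35, 35 and 31 in the seeds, against 27, 30 and 26 in the organs. Positive regulation of syringal lignin biosynthetic process was on none in the seeds, against 1, 1 and 1 in the organs, all matching the transcription factor MYB86. MYB86 by description had 0, 1, 1 and 2 in the seeds, against 1, 3 and 1 in the organs. Organelle localization was on none in the seeds, against 1, 2 and 1 in the organs, but 7 seed transcripts matched the same proteins without the name. The other GO names were 2 of positive regulation of metabolism (none in the seeds, against 1, 1 and 2 in the organs), and N-methyltransferase activity and reproductive shoot system development (none in the seeds, against 1, 1 and 1 in the organs).

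Counted by single proteins in place of names, 765 of 57115 (1.34%) were best homologues in all 4 seed stages and no organ, and 322 (0.564%) in all 3 organs and no seed stage. Of these, 162 and 86 had an informative description. Disease resistance proteins made up 9 of the 765 on the seed side and 5 of the 322 on the organ side, and receptor kinases 3 and 11. The share of such names over all 57115 proteins was not counted, so these numbers have nothing to be set against. On the seed side 4128 transcripts matched the 765 proteins, with medians of 172 amino acids and 81% similarity, against 186 amino acids and 86% for the other transcripts of the seed stages. On the organ side 1144 transcripts matched the 322, with 164 amino acids and 80%, against 208 and 86% for the other transcripts of the organs. The homologues found on 1 side only were thus matched by shorter and less similar peptides than the rest.

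Shares were compared next for names on at least 10 transcripts over the 7 assemblies. Of 3049 GO names, 132 (4.33%) had every seed share above every organ share and 150 (4.92%) the reverse. Of 494 enzyme codes the counts were 33 (6.68%) and 18 (3.64%), and of 1396 descriptions 101 (7.23%) and 79 (5.66%). With Wilson intervals in place of shares none of these names was kept apart in either direction. Leaving out root gave 243 GO names, 51 codes and 174 descriptions higher in the seeds, and 409, 55 and 133 higher in the organs. Leaving out leaf gave 268, 56 and 153 higher in the seeds. Leaving out stem gave 203 GO names higher in the seeds, and 267 GO names and 40 codes higher in the organs, and leaving out BBCH 08 gave 244 GO names and 37 codes higher in the organs. The gap is given below as the lowest share on the higher side over the highest share on the other side, with 0.5 added to each count. It reached at least 2 for 3 GO names, 1 code and 6 descriptions higher in the seeds, and for 2, 1 and 3 higher in the organs.

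Mannose-6-phosphate isomerase (code 5.3.1.8), which links mannose to fructose 6-phosphate, had the widest gap among codes, 2.35. It was on 5, 6, 6 and 7 transcripts in the seeds, against 1, 2 and 1 in the organs, and by description on 6, 6, 7 and 8 in the seeds, against 1, 2 and 1 in the organs. Glutaminyl-tRNA synthase (glutamine-hydrolyzing, code 6.3.5.7), which loads tRNA in plastids and mitochondria, was on 4, 3, 5 and 4 in the seeds, against 1, 1 and 1 in the organs (gap 1.66). The GO names of its complex, of its pathway and of mitochondrial translation were on the same numbers. Chalcone isomerase (code 5.5.1.6), of flavonoid synthesis, was on 6, 5, 6 and 7 in the seeds, against 1, 2 and 2 in the organs (gap 1.61).

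Acetolactate synthase (code 2.2.1.6), the first enzyme of branched-chain amino acids and a target of herbicides, was on 13, 8, 8 and 11 transcripts in the seeds, against 3, 5 and 4 in the organs (gap 1.38). Aminomethyltransferase (2.1.2.10), of the glycine cleavage system, was on 2, 4, 6 and 3 in the seeds, against 1, 1 and 1 in the organs. Phosphoserine transaminase (2.6.1.52), of serine synthesis, was on 2, 3, 3 and 3 in the seeds, and galactokinase (2.7.1.6), which opens the use of galactose, on 2, 3, 6 and 4, against 1, 1 and 1 each in the organs. Ribonucleoside-diphosphate reductase (1.17.4.1), which makes the building blocks of DNA and was chosen after its values were seen, was on 10, 9, 7 and 10 in the seeds, against 4, 4 and 4 in the organs. Thiosulfate sulfurtransferase activity was on 5, 7, 5 and 6 in the seeds, against 2, 3 and 2 in the organs, and dioxygenase activity on 19, 14, 13 and 15 in the seeds, against 4, 7 and 6 in the organs.

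Among descriptions, apart from elongation factor 2 and 3-isopropylmalate dehydrogenase described above, a receptor kinase named RCH1 had 3, 3, 3 and 6 transcripts in the seeds, against 0, 1 and 0 in the organs. Glutathione transferase, which joins glutathione to toxic compounds, had 4, 5, 6 and 4 in the seeds, against 1, 0 and 0 in the organs. This is 1 wording only, and descriptions reading glutathione S-transferase were not added to it. The study identified a glutathione S-transferase in root and stem as well as in seeds, so the counts do not show that organs lack the family. RPD3, the name of a histone deacetylase in yeast, had 3, 4, 4 and 4 in the seeds, against 1, 0 and 1 in the organs. Alcohol dehydrogenase 3, of fermentation, had 4, 5, 4 and 4 in the seeds, against 1, 2 and 1 in the organs. Galactoside 2-alpha-L-fucosyltransferase, which adds fucose to wall sugars, had 7, 7, 9 and 11 in the seeds, against 2, 4 and 2 in the organs, and the amidotransferase subunit for glutamyl-tRNA 4, 4, 5 and 4 in the seeds, against 1, 1 and 1 in the organs. A separate description, subunit A of this amidotransferase, went the other way, with none in the seeds, against 1, 1 and 1 in the organs. Catalase, which breaks down hydrogen peroxide in peroxisomes, and fructosyltransferase, which makes fructans, were chosen after their values were seen. Catalase had 11, 10, 7 and 9 in the seeds, against 3, 4 and 3 in the organs, and fructosyltransferase 6, 9, 6 and 7 in the seeds, against 0, 4 and 2 in the organs.

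**Figure D4:**
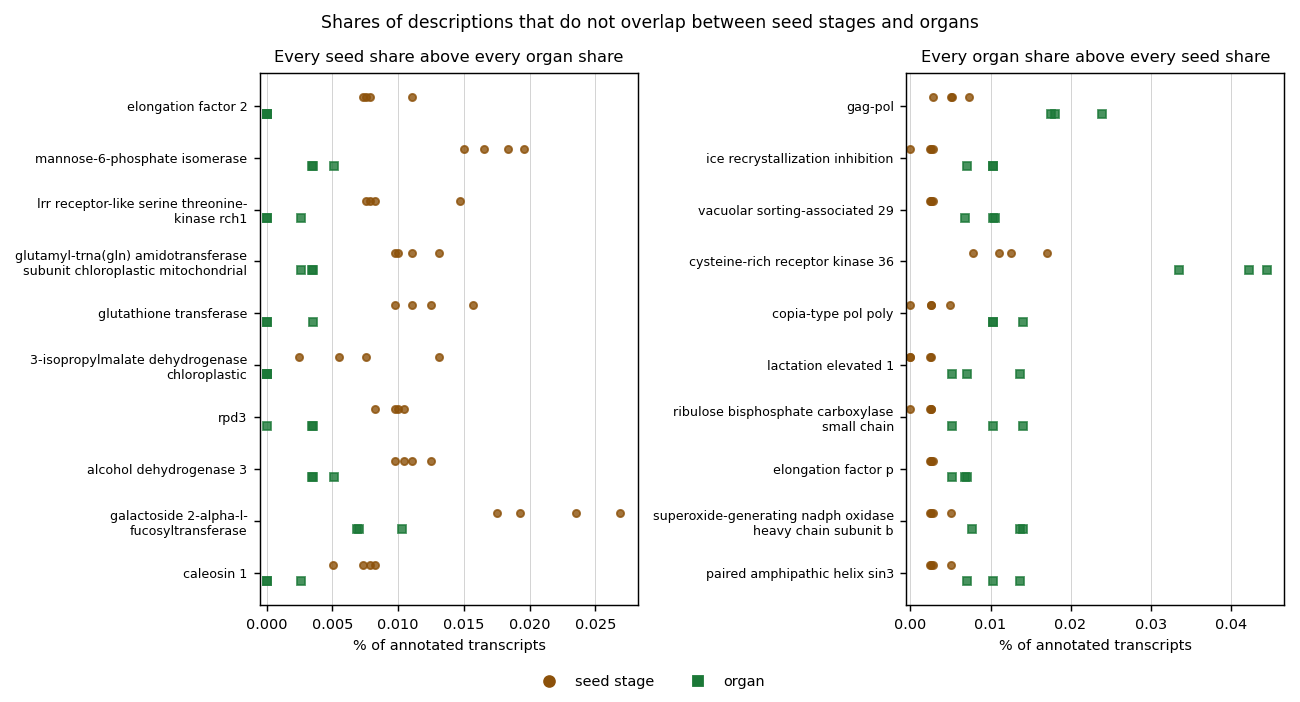
Shares of annotated transcripts (x axis, percent) for the 10 descriptions with the widest gap in each direction, each point 1 assembly (circles for seed stages, squares for organs). On the left every seed stage lies above every organ, as for mannose-6-phosphate isomerase with 6, 6, 7 and 8 transcripts in the seeds, against 1, 2 and 1 in the organs, and on the right every organ lies above every seed stage, as for cysteine-rich receptor kinase 36.

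Among names higher in the organs the widest gap was 2.26, for gag-pol, given above. Regulation of secondary cell wall biogenesis, the GO name with the widest gap, was on 0, 0, 1 and 0 transcripts in the seeds, against 2, 4 and 3 in the organs (gap 2.24). Tripeptidyl-peptidase activity (code 3.4.14), which trims peptides, was on 1, 1, 1 and 1 in the seeds, against 5, 3 and 2 in the organs (gap 2.07). The code of laccase, 1.10.3.2, was on 5, 4, 3 and 8 in the seeds, against 8, 21 and 11 in the organs. GTP diphosphokinase activity was on 2, 3, 3 and 2 in the seeds, against 9, 5 and 4 in the organs. Its code 2.7.6.5, of the enzyme that makes the alarm nucleotide of bacteria and plastids, was on 2, 2, 3 and 2 in the seeds, against 9, 4 and 3 in the organs, and the hydrolase of that nucleotide (3.1.7.2) on 1, 1, 2 and 1 in the seeds, against 8, 3 and 2 in the organs, so leaf was high in both. The remaining 6 of the 10 codes with the widest gap (1.4, 4.1.2.25, 1.5.1.2, 2.4.2.11, 2.7.1.138 and 5.4.2.8) were on 1 to 3 transcripts in each seed stage, against 1 to 7 in each organ. Complex I assembly in mitochondria was on 2, 1, 2 and 1 in the seeds, against 3, 3 and 3 in the organs, and hedgehog receptor activity, a name taken from animals, on 1, 2, 1 and 1 in the seeds, against 2, 3 and 3 in the organs. Photoreceptor activity, the sensing of light, was on 2, 3, 2 and 2 in the seeds, against 5, 4 and 4 in the organs. Manganese ion transmembrane transport was on 1, 2, 2 and 2 in the seeds, against 2, 3 and 4 in the organs, mitochondrial RNA catabolic process on 1, 1, 1 and 1 against 2, 2 and 4, and queuosine biosynthetic process and queuine tRNA-ribosyltransferase activity, a change made to tRNA, each on 2, 3, 2 and 3 against 4, 4 and 3.

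Cysteine-rich receptor kinase 36, of a family of receptors tied to stress and defence, had the most transcripts among the 10 widest gaps of the organs. It had 4, 5, 3 and 7 in the seeds, against 12, 13 and 13 in the organs (gap 1.9). The family as a whole did not differ in this way, with 102, 110, 96 and 155 in the seeds, against 76, 144 and 75 in the organs. Ice recrystallization inhibition, of proteins that keep ice crystals small in cold-hardy grasses, had 1, 0, 1 and 1 in the seeds, against 2, 4 and 3 in the organs. Vacuolar sorting-associated 29, of the retromer, had 1, 1, 1 and 1 in the seeds, against 3, 4 and 2 in the organs. Superoxide-generating NADPH oxidase heavy chain subunit B had 1, 2, 1 and 1 in the seeds, against 4, 3 and 4 in the organs. Copia-type pol polyprotein had 0, 1, 1 and 2 in the seeds, against 4, 4 and 3 in the organs, lactation elevated 1 had 0, 0, 1 and 1 against 2, 2 and 4, elongation factor P 1, 1, 1 and 1 against 2, 2 and 2, and paired amphipathic helix SIN3, a corepressor, 1, 2, 1 and 1 against 2, 4 and 4.

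Large classes of GO names had enough transcripts for single assemblies to be told apart by counting error. There are 12 pairs of a seed stage and an organ, which share assemblies, and names were listed when at least 4 of the pairs had separate Wilson intervals in 1 direction, a rule chosen after values were seen. It took 8 GO names higher in the seeds (0.262% of those compared) and 13 higher in the organs (0.426%), 1 description (0.0716%) and 2 descriptions (0.143%), and no enzyme code in either direction (0%). The 8 GO names of the seeds were oxidation-reduction process, oxidoreductase activity, its class that acts on paired donors, monooxygenase activity, heme binding, iron ion binding, metal ion binding and the transfer of acyl groups other than amino-acyl groups. Oxidation-reduction process made up 5.07, 5.32, 5.37 and 5.46% in the seeds, against 4.81, 5.01 and 4.5% in the organs, with 8 of 12 pairs separate. Heme binding made up 1.47, 1.45, 1.54 and 1.73% in the seeds, against 1.14, 1.57 and 1.15% in the organs, again with 8 pairs, none of them with root. Monooxygenase activity made up 0.807, 0.844, 0.897 and 0.973% in the seeds, against 0.626, 0.809 and 0.647% in the organs, with 6 pairs. Cytochromes P450, heme monooxygenases, had 78, 99, 95 and 129 transcripts in the seeds, against 60, 91 and 62 in the organs, and peroxidase, the description listed for the seeds, is given above. Metal ion binding, with 7 pairs, made up 6.71, 6.47, 6.65 and 7.03% in the seeds, against 5.61, 6.8 and 6.04% in the organs. In these 4 classes root stood with the seed stages, or between them and the other organs. The transfer of acyl groups made up 0.595, 0.533, 0.594 and 0.648% in the seeds, against 0.355, 0.626 and 0.568% in the organs. All of its 4 separate pairs were with leaf, and root lay within the range of the seeds.

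**Figure D5:**
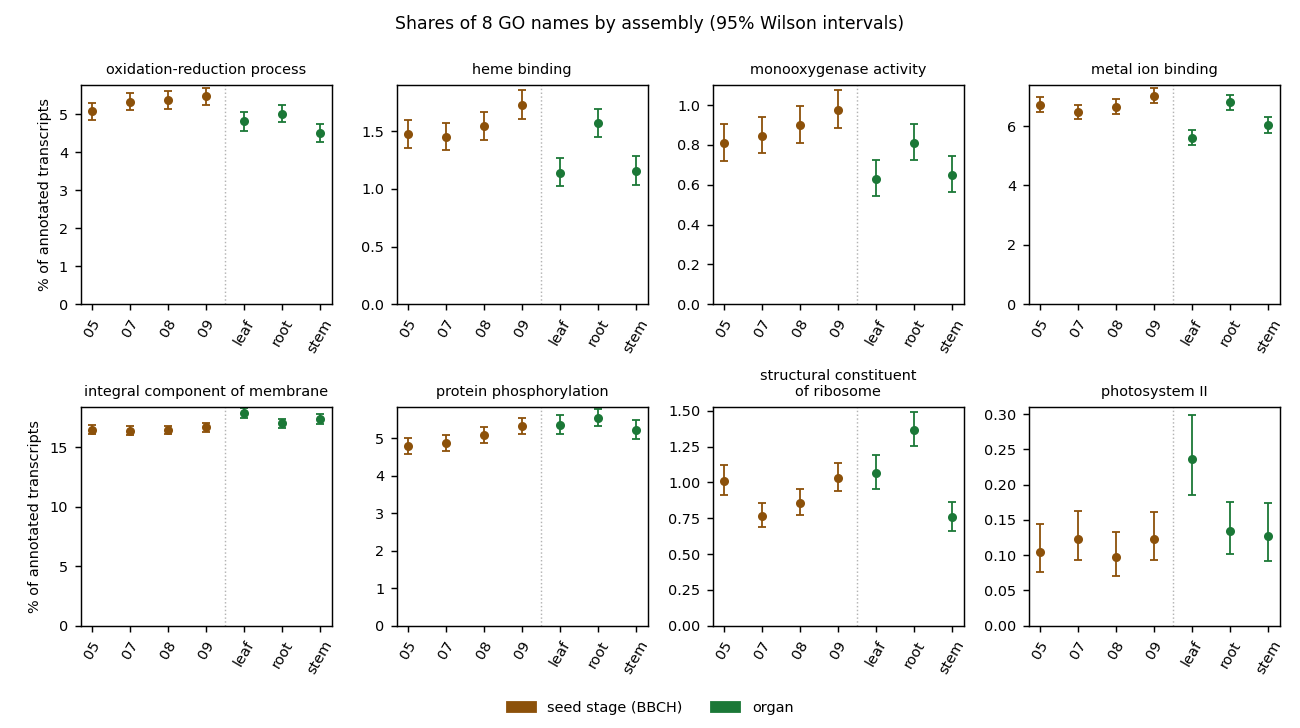
Share of annotated transcripts (y axis, percent, from 0) for 8 large GO names, in the 4 seed stages by BBCH number and then leaf, root and stem (x axis), with 95% Wilson intervals as bars. Oxidation and heme names stand higher in the seeds than in leaf and stem, integral component of membrane stands lower in every seed stage than in every organ, and photosystem II stands out in leaf at 0.236%.

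The 13 GO names of the organs were integral component of membrane, protein phosphorylation, protein kinase activity, translation, ribosome and its structural constituents, cytosol, chloroplast and 5 names of the light reactions. Integral component of membrane made up 16.5, 16.4, 16.5 and 16.7% in the seeds, against 17.9, 17 and 17.4% in the organs, with 7 of 12 pairs separate and no overlap of shares. Protein phosphorylation made up 4.79, 4.87, 5.08 and 5.33% in the seeds, against 5.36, 5.56 and 5.23% in the organs, with BBCH 09 among the organs. Photosystem II made up 0.105, 0.123, 0.0968 and 0.122% in the seeds, against 0.236, 0.134 and 0.127% in the organs, and all of its 4 separate pairs were with leaf. The same held for the other names of the light reactions, for cytosol and for chloroplast, with 4 pairs each. Cytosol made up 1.2, 1.17, 1.21 and 1.16% in the seeds, against 1.51, 1.12 and 1.17% in the organs. Chloroplast made up 0.978, 1.06, 1.02 and 0.98% in the seeds, against 1.37, 0.938 and 1.08% in the organs. In both, root lay under every seed stage. Structural constituent of ribosome was split, at 1.01, 0.766, 0.858 and 1.03% in the seeds, against 1.07, 1.37 and 0.756% in the organs, with 5 pairs higher in an organ and 2 higher in a seed stage. Translation and ribosome were split in the same way, also with 5 and 2 pairs. RPP13 had 6 separate pairs, all higher in an organ. Rac GTPase, the other description of the organs, had 0, 0, 0 and 1 transcripts in the seeds, against 0, 10 and 0 in the organs, and so belonged to root alone among the organs.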

How the data were processed

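Each of the 7 libraries of pooled RNA was assembled on its own by the authors, who clipped reads with Trimmomatic (also named in the submitters' processing notes, with no version given there), evened out depth by k-mers, assembled with Trinity, kept the longest isoform, merged like contigs with CD-HIT-EST, translated with TransDecoder, searched plant UniProtKB with blastp and set GO names and enzyme codes with Blast2GO. Used as deposited were the e-value, a score from the authors' homology search, and the mean similarity, a percent from the authors' annotation step. Peptide lengths are in amino acids. The combined assembly was not compared. No sequences or coordinates were used.

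Descriptions were lower-cased and stripped of words such as putative and fragment. Members and the 14 lists were chosen with earlier results of these data known, and list words were adapted to the wording of the descriptions. Shares are of annotated transcripts, with 95% Wilson intervals that cover counting error only. Named were, in each set found on 1 side only, the 10 names with most transcripts, in each set of shares that did not overlap the 10 with the widest gap, and per list the 3 largest descriptions, apart from names said to be chosen after their values were seen. Alternatives were stricter limits (e-values of 1e-05 and 1e-10), counting each Trinity gene once, distinct proteins, no green algae, other denominators, at least 20 transcripts, intervals, descriptions as listed and leaving out each assembly. The counting was tested on simulated data. Counting ran in pandas 2.3.3 and NumPy 2.4.6 under Python 3.11.15, and plots were drawn with matplotlib 3.10.9.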

Additional observations from a re-analysis of the deposited data

How the results depend on the processing

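With 1 assembly per condition, no result has a replicate or a test, and a name that is absent can be a transcript that was not assembled or that matched another homologue. No paired analysis was possible because each condition is 1 assembly here. Of 202 recomputed counts, 142 stayed within 1.5 times of the value reported, among them every count without green algae.

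Wilson intervals in place of shares left 0 names and 0 lists in either direction. With distinct proteins, there were 20 codes higher in the seeds, and 44 and 51 descriptions higher in the seeds and in the organs. With at least 20 transcripts there were 11 codes higher in the organs, and 51 and 30 descriptions higher in the seeds and in the organs. With e-values of at most 1e-05 or 1e-10, 2 lists were higher in the organs, root uptake beside mobile elements. At least 2 transcripts in each assembly, chosen after seeing the data, left 0 GO names and 0 codes in either direction and 5 and 2 descriptions for the seeds and the organs. Leaving out the most frequent description of each list, also chosen after seeing the data, left 1 list higher in the seeds.

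Leaving out each assembly in turn gave 20 to 50 GO names, 5 to 11 codes and 68 to 133 descriptions in the seeds alone. It gave 8 to 24, 1 to 3 and 39 to 75 in the organs alone. Names with higher shares in the seeds ranged over 155 to 268 GO names, 36 to 56 codes, 118 to 174 descriptions and 2 to 4 lists. Names with higher shares in the organs ranged over 193 to 409, 21 to 55, 82 to 133 and 1 to 3 lists.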
